A study of Mus musculus with 3 samples.

Results

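Fibroblastic reticular cells (FRC) that carry Ccl19 were examined in a single-cell RNA sequencing library of Peyer's patches (PP) from control mice. A cell was taken as a fibroblast when the unique molecular identifiers (UMIs, each standing for 1 captured RNA molecule) of Col1a1, Col1a2, Dcn, Pdgfra and Lum summed to at least 5 and exceeded those of the endothelial genes Pecam1, Cdh5, Egfl7, Emcn and Flt1. A fibroblast was taken as an FRC when its UMIs of Ccl19, Cpxm1, Tnfsf13b and Thbs4 summed to at least 4 and exceeded each of 3 sums that mark other fibroblasts of the gut wall, namely Adamdec1, Col6a5, Tcf21 and Hsd11b1, then Pi16, Mfap5, Igfbp6 and Scara5, then Bmp7, Wif1, Fgf9 and Tmem119. The rule gave 514 FRC among 2643 fibroblasts and 5473 kept cells, each of which had 500 genes or more, 1000 UMIs or more and no more than 10% mitochondrial UMIs. FRC were thus 19.4% of the fibroblasts (95% Clopper-Pearson interval 17.95 to 21.01%), and the other 2129 fibroblasts served for comparison. Since the measured counts of the same cells chose the members, differences between FRC and other fibroblasts are given as descriptions with no test.

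The study asked how the nuclear receptor COUP-TFII, encoded by Nr2f2, affects gene expression in PP endothelium. The series holds 3 libraries, 1 from control mice (labelled WT, strain C57BL/6) and 2 from EC-iCOUPOE mice (strain CDH5(PAC)CreERT2;COUP-TFIIOE/OE), in which a tamoxifen-inducible Cre under the endothelial Cadherin 5 promoter switches on COUP-TFII. The paper's methods name littermates without the Cre transgene as controls, while its results name both Cre-negative control mice and WT mice. Which of these gave the library labelled WT is not clear from the sources used here. All mice were 6 to 10 weeks old and cells were isolated 14 to 19 days after tamoxifen. Males and females were pooled before capture, and the number of mice and the day of each library are not given in the sources used here. All 3 libraries are labelled as blood endothelial cells that had been sorted, but the sort gate is not given in the sources used here. The control library departed from that label, with 2643 fibroblasts (48.3% of the kept cells) beside 2214 endothelial cells (40.5%). The paper's methods state that its own analysis removed cells of other types by supervised selection, and name fibroblastic reticular cells among them. Such cells are still present in the deposited counts read here. The EC-iCOUPOE libraries had 18 fibroblasts among 4750 kept cells (0.379%) and 5 among 1243 (0.402%), with 1 FRC in each, so FRC could not be compared between genotypes. Nr2f2 stood at 124 CPM (UMIs of a gene per 1000000 UMIs of the class) in endothelial cells of the control library and at 1627 and 1109 CPM in those of EC-iCOUPOE replicates 1 and 2, in the direction of the labels. No FRC barcode of the control library occurred in another library, and 12 barcodes of other control cells were shared with EC-iCOUPOE replicate 2.

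FRC are the stromal cells that build the reticular network of lymphoid organs. They guide T cells, B cells and dendritic cells with chemokines, sustain them with cytokines such as interleukin 7 and BAFF, and ensheathe conduits of matrix that carry lymph and small antigens. In PP they form the T cell zone between follicles and the stroma of the follicles and subepithelial dome, and their maturation depends on lymphotoxin signals from lymphoid cells.

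The 514 FRC held 2034149 UMIs and the other fibroblasts 5929648. UMIs per FRC ranged from 1064 to 13266 with a median of 3779.5, against a median of 2601 in other fibroblasts and 2543 in endothelial cells. FRC thus held more UMIs per cell, with a median of 1566 genes against 1274. The part of the rule's minimum of 4 UMIs in this was not tested. Shares of cells with a UMI called thinned are given after each cell was thinned to 1000 UMIs. The mitochondrial share was 2.22% in FRC and 2.82% in other fibroblasts. Levels are CPM of UMIs summed over a class, with exact Poisson intervals at 95% in parentheses where a level leads a comparison. These intervals cover counting error only, because the cells come from 1 library and are no replicates, and UMI levels at the 3′ end are not scaled to gene length.

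Among the genes of the rule, Ccl19 (chr4:42754525-42756577, minus strand, mm10) encodes the chemokine that draws CCR7-bearing T cells and dendritic cells. It had a UMI in 447 of 514 FRC (87.0%), with a median of 4 and at most 199 UMIs per cell. Cpxm1 (chr2:130390775-130397574, minus strand), encoding a carboxypeptidase-like protein, had a UMI in 427 FRC (83.1%). Tnfsf13b (chr8:10006467-10039072, plus strand), encoding the B cell survival factor BAFF, had a UMI in 424 (82.5%), and Thbs4 (chr13:92751590-92794818, minus strand), encoding the matrix protein thrombospondin 4, in 221 (43.0%). These shares are set in part by the rule, and are no check of the label. All 4 genes were seen in 151 FRC (29.4%), 3 of them in 210, 2 in 132 and 1 in 21. In other fibroblasts Ccl19 had a UMI in 6.53%, Cpxm1 in 22.4%, Tnfsf13b in 22.6% and Thbs4 in 0.939% of cells. C3 (chr17:57203970-57228136, minus strand), the central complement component, was named as a marker but did not enter the rule. It had a UMI in 512 FRC (99.6%), with a median of 17 per cell, and in 59.5% of other fibroblasts. At the edge of the rule, 49 FRC had exactly 4 UMIs of the 4 genes, 118 fibroblasts had 3, of which 71 exceeded each other class sum and were kept out by the minimum of 4 alone, and 42 fibroblasts with 4 or more were left out because another class sum was as high, in 41 cases that of Adamdec1.

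FRC stood apart from other fibroblasts across many genes. Of 9498 genes with at least 50 UMIs in both classes together, the rule genes left out, 295 (3.11%) were at least 2-fold higher in FRC and 742 (7.81%) at least 2-fold lower. At 4-fold, 106 genes (1.12%) were higher and 214 (2.25%) lower. The counting interval lay wholly above 2-fold for 188 genes (1.98%) and wholly below it for 288 (3.03%). The median log2 ratio of all genes was −0.15, and trimmed mean of M-values (TMM) scaling moved it to −0.03 and the counts to 360 higher and 580 lower genes, so that 38.3% instead of 28.4% of the called genes were higher.

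**Figure D1:**
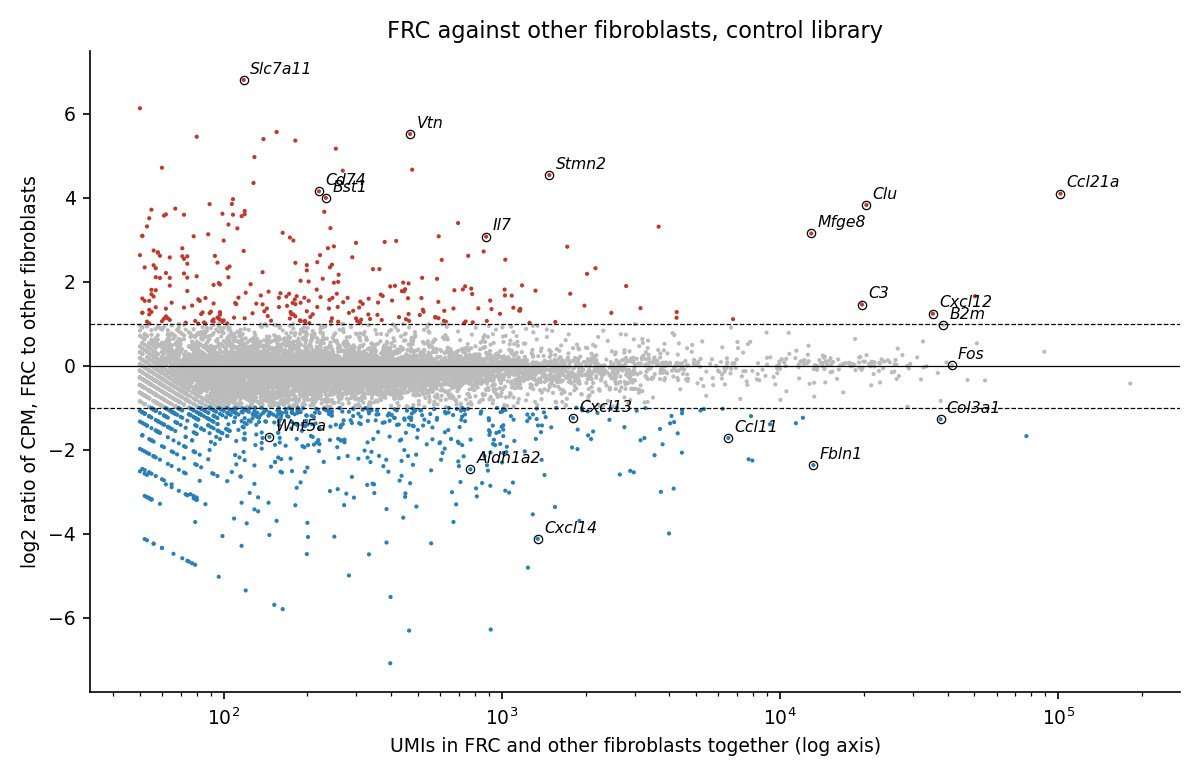
Each point is 1 of the 9498 genes, placed by its UMIs in FRC and other fibroblasts together (log axis) and its log2 ratio of CPM, FRC to other fibroblasts. Dashed lines mark 2-fold, and the 295 genes above (red) include Ccl21a at 4.10 and Clu at 3.83, while the 742 below (blue) include Fbln1 at −2.37 and Cxcl14 at −4.12.

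Chemokine genes were split between higher and lower levels in FRC. Ccl21a (chr4:42772860-42773993, minus strand), which encodes the second CCR7 ligand, stood at 42794 CPM (42510.5 to 43079.5) in FRC, 1127 in the Adamdec1 class, 275 in the Pi16 class, 34.6 in the Bmp7 class, 6754 in fibroblasts of no class and 3677 in endothelial cells. The level in FRC was 17.1-fold that of all other fibroblasts together (2501 CPM). The Adamdec1, Pi16 and Bmp7 classes held 1388, 162 and 32 cells, and fibroblasts of no class 547. The level in the Bmp7 class rests on 3 Ccl21a UMIs. Ccl21a made up a median of 4.56% and at most 10.97% of the UMIs of an FRC, and exceeded 1% in 83.7% of FRC, 18.8% of fibroblasts of no class and 2.09% of the Adamdec1 class. After thinning it was seen in 90.1% of FRC, 16.5% of other fibroblasts and 27.8% of endothelial cells, a class in which high endothelial venules are known to make it. Most other fibroblasts therefore had none or little Ccl21a, while most FRC had it in quantity. Ccl21b and Ccl21c, near-identical copies, had 0 UMIs in FRC, and reads that fit several copies could not be assigned here, so the values of Ccl19 and Ccl21a may be incomplete.

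**Figure D2:**
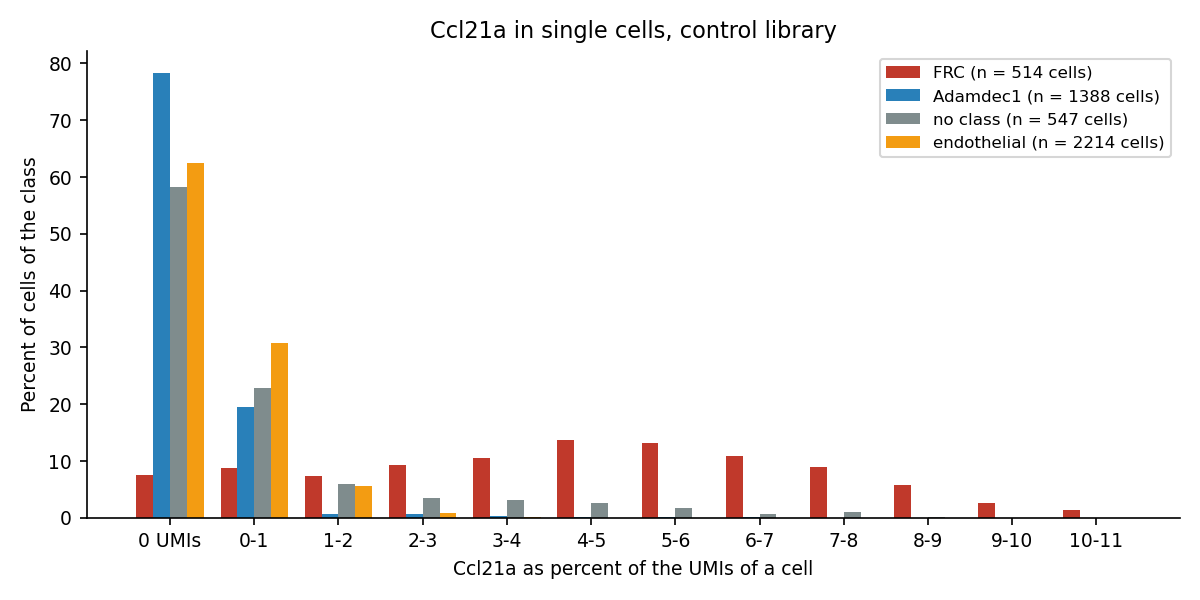
Bars give the percent of cells of a class (vertical axis, from 0) whose Ccl21a UMIs made up a given percent of all UMIs of the cell (horizontal axis), for FRC, the Adamdec1 class, fibroblasts of no class and endothelial cells. FRC spread around their median of 4.56%, whereas cells with 0 UMIs are the tallest bar of the other classes.

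Cxcl12, which encodes the ligand of CXCR4 that retains lymphocytes and plasma cells, was seen in 514 of 514 FRC and stood at 7788 CPM (7667 to 7909.8) against 3302, with 5423 in fibroblasts of no class and 944 in the Pi16 class. The inflammatory chemokine genes Ccl7 (336 against 58.4 CPM), Ccl2 (267 against 105 CPM) and Cxcl9 (58.0 against 10.6 CPM) were also higher in FRC. Ccl7 was seen in 18.7% and Ccl2 in 15.6% of thinned FRC, beside 0.0452% and 0.226% of thinned endothelial cells. Cxcl10, an interferon-induced relative of Cxcl9, stood at 262 and 248 CPM. Other chemokine genes were lower in FRC. Cxcl13, which encodes the B cell chemoattractant of follicles, stood at 112 CPM (98.0 to 128) against 265, and at 330.4 CPM in the Adamdec1 class. Its log2 ratio of −1.24 became −0.86, under 2-fold, in female cells only and −3.25 in male cells, where it had 3 UMIs in 15 FRC. Ccl11 (eotaxin) stood at 302 against 996 CPM, Ccl8 at 2.95 against 12.1 CPM and Cxcl14 at 12.8 against 223 CPM. The scavenging receptor genes Ackr3 (4.92 against 38.96 CPM) and Ackr4 (29.99 against 111 CPM), which remove CXCL12 and CCR7 ligands respectively, were lower as well. Of 14 chemokine and scavenger genes tested, 5 were at least 2-fold higher and 6 lower, with a median log2 ratio of −0.39, beside 3.11% and 7.81% of all genes. The higher genes thus included ligands of CCR7 and CXCR4, and the lower ones the genes for CXCL13, eotaxin and the scavengers.

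Among 10 genes tested for survival and growth factors of lymphocytes and myeloid cells, 4 were at least 2-fold higher and 0 lower (median log2 ratio 0.47), beside 3.11% and 7.81% of all genes. Il7 (chr3:7569994-7613760, minus strand), encoding the cytokine that keeps naive T cells alive, stood at 321 CPM (296 to 346) in FRC against 38.1 (33.3 to 43.4) in other fibroblasts, an 8.41-fold difference, and at 2.02 CPM in endothelial cells. It was seen in 25.1% of thinned FRC, 3.38% of other fibroblasts and 0.226% of endothelial cells, the last of which was taken as the share that free RNA gives. Flt3l, for the growth factor of dendritic cells, stood at 90.9 against 40.8 CPM, Il34, for a ligand of the macrophage CSF1 receptor, at 125 against 57.0 CPM, and Kitl, for stem cell factor, at 159 against 77.9 CPM. The thinned share of Kitl was 14.8% in FRC and 19.9% in endothelial cells, so its presence in single FRC was not above that of another cell type. Csf1 (87.0 against 93.8 CPM) and Il6 (141 against 150.4 CPM) were near even. Tnfsf11, for RANKL, which marks marginal and subepithelial stroma of PP, had 1 UMI in FRC and 2 in other fibroblasts.

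**Figure D3:**
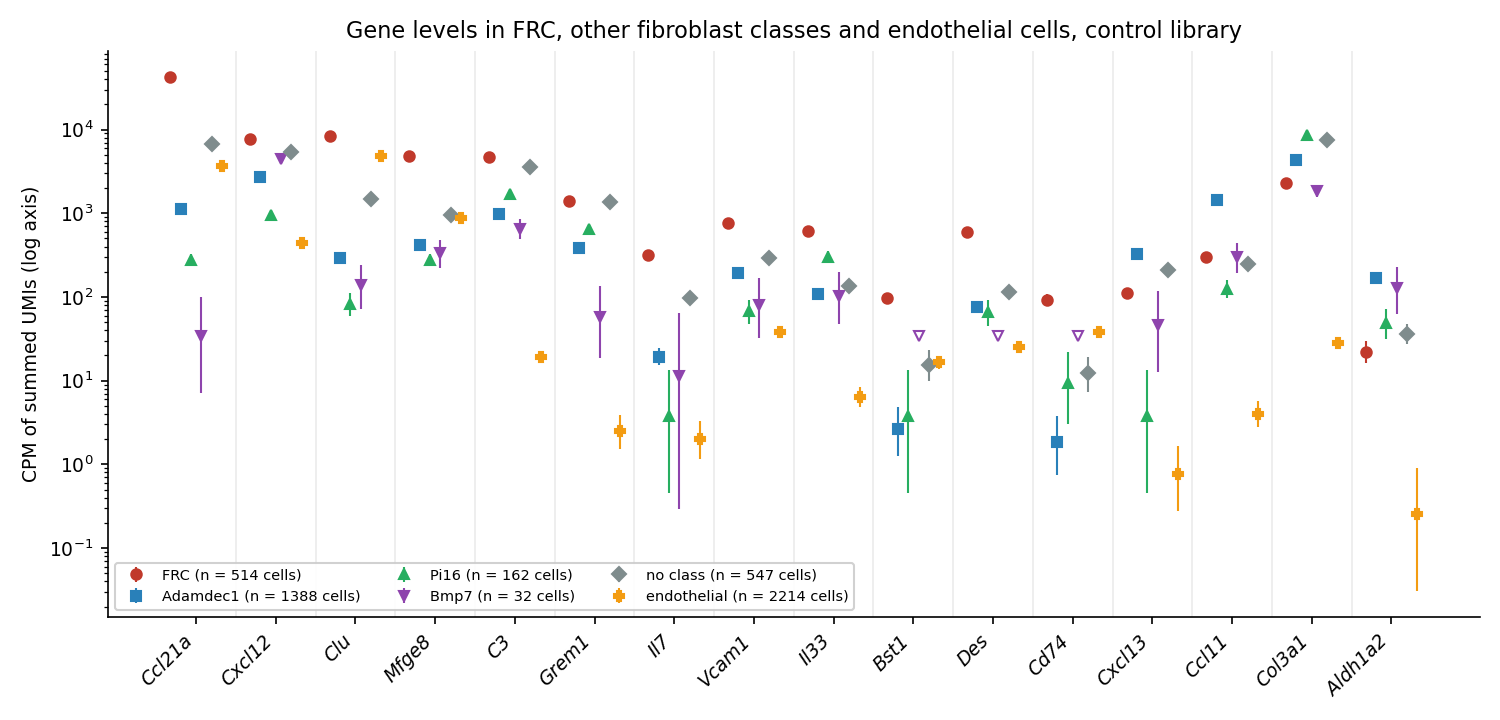
CPM of summed UMIs (log axis) of 16 genes in FRC, in the Adamdec1, Pi16 and Bmp7 classes, in fibroblasts of no class and in endothelial cells, with exact Poisson 95% intervals as bars and open symbols at the floor of 3 UMIs where a class had none. FRC lead for the first 12 genes from Ccl21a to Cd74, with Grem1 nearly level in fibroblasts of no class and Clu also high in endothelial cells, and stand below the Adamdec1 class for Cxcl13, Ccl11, Col3a1 and Aldh1a2.

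Surface and identity genes of FRC gave a mixed picture. Bst1 (BP-3, an ADP-ribosyl cyclase used to mark reticular cells) stood at 96.8 CPM (83.8 to 111) against 6.07, a 15.95-fold difference, and was seen in 7.98% of thinned FRC and 0.470% of other fibroblasts. Vcam1, an adhesion molecule that lymphocytes bind through α4 integrins, stood at 771 CPM (734 to 810.5) against 207, Il33, an alarmin kept in the nucleus, at 607 against 133 CPM, and Enpp2, for autotaxin, which makes lysophosphatidic acid that supports lymphocyte motility, at 674 against 135 CPM. Cd44 (64.9 against 30.4 CPM) completed the 5 genes of 16 tested that were at least 2-fold higher, where 3 were lower and the median log2 ratio was 0.04, beside 3.11% higher and 7.81% lower of all genes. Pdpn (podoplanin), which is widely used to sort FRC, stood at 139 CPM (123 to 156) against 154 (144 to 165), and Pdgfrb at 65.4 against 86.7 CPM. In summed counts neither gene was thus higher in FRC than in the other fibroblasts. Pdpn stood at 58.4 CPM in FRC with 4 UMIs of the rule genes and at 177 CPM in those with 16 or more. Cd34 (81.1 against 460.2 CPM), Ly6a (159 against 583 CPM) and Cd248 (3.44 against 63.7 CPM), which mark adventitial and progenitor-like fibroblasts, were lower in FRC and had their highest class levels in the Pi16 class, at 1032, 1515 and 299 CPM.

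Clu and Mfge8, listed here with follicular dendritic cells, followed the same line. Clu (chr14:65968483-65981547, plus strand), for the extracellular chaperone clusterin, stood at 8338 CPM (8213 to 8465) in FRC against 587, and Mfge8 (chr7:79133768-79149060, minus strand), for a protein that bridges apoptotic cells to phagocytes, at 4791 CPM (4697 to 4887) against 541. They were seen in 85.8% and 84.4% of thinned FRC and in 11.8% and 28.1% of other fibroblasts. Endothelial cells also carried Clu, at 4889 CPM. Sostdc1, for a BMP and WNT antagonist, stood at 19.2 against 2.87 CPM, and Serpina1a at 24.1 against 2.02 CPM with 34.7% of its FRC UMIs in 1 cell and a near-identical copy in Serpina1c. Another gene of this family, Serpina1b, held more UMIs in FRC than either, at 1391 against 140 CPM, so reads may be misassigned among these copies. Genes that define mature follicular dendritic cells were not seen or rarely seen. Cr2 (CD21) and Fcer2a (CD23) had 0 UMIs in 514 FRC and Fcgr2b was seen in 4, so that a Cr2 level below the floor of 1.47 CPM was not detectable at this depth. Sox9 was lower, with 6 UMIs in FRC (2.95 against 17.0 CPM).

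Of 21 genes of the lymphotoxin and NF-kB pathway tested, 5 were at least 2-fold higher and 0 lower, with a median log2 ratio of 0.23, beside 3.11% and 7.81% of all genes. The 5 became 9 with TMM scaling and against fibroblasts without FRC rule UMIs, 8 against the named fibroblast classes and 1 in male cells, where fewer genes were tested. Nfkb2, for the p100 precursor of the alternative pathway, stood at 95.4 CPM (82.4 to 109.8) against 30.2 (25.9 to 34.9), Traf1, for an adaptor, at 30.5 against 5.57 CPM, Nfkbie, for the inhibitor IkB epsilon, at 58.0 against 16.5 CPM, Birc2, for the ubiquitin ligase cIAP1, at 129 against 42.3 CPM, and Tnfaip3, for the deubiquitinase A20, at 75.7 against 27.3 CPM. Relb (109 against 54.8 CPM, log2 ratio 0.99), Birc3 (0.94) and Nfkbia (0.91) lay just under 2-fold. Of the receptor genes, Tnfrsf1b stood at 89.5 against 47.6 CPM (log2 ratio 0.91), Tnfrsf1a at 241 against 285 CPM and Ltbr at 49.7 against 63.2 CPM, while the kinase gene Map3k14 (NIK) stood at 22.1 against 14.5 CPM and Nfkb1 at 57.0 against 56.3 CPM. Nfkb2 and Traf1 were also seen in endothelial cells, at 71.0 and 62.9 CPM.

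The promoters of these genes were read from RefSeq on GRCm38.p6, the assembly named mm10, in windows of 250 bases before and 50 after each start. The NF-kB letters searched, GGG followed by any 2 bases and then TTTCC, on either strand, occurred in 535 of 32851 windows (1.63%) and in 1.97% of the 7474 tested genes that had a window. They occurred in 10 of 208 genes at least 2-fold higher in FRC (4.81%), in 6 of 553 lower genes (1.08%), and in 6 of 18 genes of the NF-kB list that had a window. Matches of 3 higher genes and of Nfkbia are printed because they lie in the pathway or its best known targets, with the matched letters in capitals, 5′ to 3′ on the strand of the gene.
Nfkb2, chr19:46304716-46304736, plus strand: ggggccgaaaGGGGCTTTCCc
Nfkb2, a later start, chr19:46305695-46305724, plus strand: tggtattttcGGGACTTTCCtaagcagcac
Tnfaip3, chr10:19015411-19015432, minus strand: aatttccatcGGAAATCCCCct
Cxcl2, chr5:90903792-90903821, plus strand: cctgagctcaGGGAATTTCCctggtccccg
Cxcl2, a second match, chr5:90903811-90903840, plus strand: cctggtccccGGGCTTTTCCagacatcgtg
Nfkbia, chr12:55492657-55492686, minus strand: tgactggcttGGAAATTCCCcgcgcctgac

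The match of Nfkb2 lies between 11 and 2 bases before its first start and that of Tnfaip3 between 12 and 3 bases before. Cxcl2, for a neutrophil chemokine, stood at 21.6 against 7.08 CPM. The remaining higher genes with a match were Hdac9, Ifngr2, Serpina3g, Serpina3n, Steap4, Tank and Tifa. The windows of Ccl19 and Ccl21a held no match. A second set of letters described for alternative NF-kB, GGGAGA followed by TTTG, occurred on either strand in 26 windows (0.0791%), in 0 of the 208 higher genes and in 3 of the 553 lower genes. One of its matches lay in Cxcl13, which was lower in FRC, and it is printed for that reason.
Cxcl13, chr5:95956815-95956844, plus strand: gcaatattttGGGAGATTTGaaaactgaca

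A match of letters is a description of the window and was not tied to binding in these data.

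Of 12 complement genes tested, 2 were at least 2-fold higher and 1 lower, with a median log2 ratio of 0.52, and of 19 antigen presentation genes 4 were higher and 0 lower, with a median of 0.22, beside 3.11% higher and 7.81% lower of all genes. Across the alternatives the complement list had 1 to 4 higher and 0 to 2 lower. The antigen presentation list had 3 to 6 higher and 0 lower. C3 stood at 4694 CPM (4600.2 to 4789) against 1711, with 3561 in fibroblasts of no class and 979.6 in the Adamdec1 class, and C2, which forms the classical convertase, at 151 against 73.0 CPM. Masp1, for a lectin pathway protease, had 3 UMIs in FRC (log2 ratio −3.14, interval −5.45 to −1.54). Of the class II genes, H2-Ab1 stood at 151 CPM (135 to 169) against 35.4, H2-Aa at 19.7 against 3.04 CPM and their chaperone gene Cd74 at 92.9 against 5.23 CPM. H2-Ab1 was seen in 14.2% of thinned FRC and 0.723% of endothelial cells, and Cd74 in 7.78% and 1.90%. Ciita, the class II master regulator, had 0 UMIs in FRC and in other fibroblasts. B2m, the light chain of class I, stood at 7641 against 3903 CPM, a log2 ratio of 0.97, and H2-Q7 at 180.4 against 51.9 CPM, with reads of related class I genes open to misassignment. UMIs of T cell, B cell and leukocyte lists were present in 99 FRC (19.3%) and in 9.35% of other fibroblasts. Of the leukocyte list, Ptprc (CD45), Laptm5 and Itgam had 0 UMIs in FRC, and the summed list, led by Coro1a at 6.88 CPM, stood at 27.04 CPM in FRC and 22.9 CPM in other fibroblasts. The T cell list summed to 17.2 against 6.91 CPM, led by Cd3e, with Cd3d, Cd3g, Trbc2, Cd4 and Cd8a at 0 in FRC. The B cell list summed to 93.9 against 528 CPM, led by Igkc, with Cd79b, Ms4a1, Ighd and Cd22 at 0. Cd3e, a defining T cell gene, had 22 UMIs in FRC (10.8 against 5.23 CPM). The direction of the B cell list turned when the cell with the most UMIs of each gene was left out, as the log2 ratio of Igkc went from −2.54 to 1.40 and that of Ighm from −2.19 to 1.90. The part of lymphocyte RNA in the FRC values was not tested. Without cells holding any such UMI, 278 genes were higher and 721 lower.

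Matrix genes ran the other way. Of 29 genes of basement membranes and conduits tested, 23 were at least 2-fold lower in FRC and 0 higher (median log2 ratio −1.54), against 7.81% lower among all genes. Fbln1, for the elastic fibre protein fibulin 1, stood at 404 CPM (376 to 432) against 2085, Sparcl1 at 88.0 against 669 CPM, Lama2, a laminin chain, at 45.7 against 188 CPM, Fn1 (fibronectin) at 95.4 against 320.3 CPM and Tnc (tenascin C) at 10.8 against 75.2 CPM. Sparc, the most abundant of the list, stood at 2990.4 against 5346 CPM. The collagen IV genes Col4a1 (289 against 323 CPM) and Col4a2 (263 against 303 CPM) were nearly even. Of 20 fibrillar and reticular collagen genes and their partners, 11 were lower and 1 was higher (median log2 ratio −1.10), beside the same shares of all genes. Col3a1, the reticular fibre collagen, stood at 2303 CPM (2237 to 2369.6) against 5578, and Col6a1, Col6a2 and Col6a3 at 502, 213 and 141 against 1154, 650.0 and 483 CPM. The exception was Fmod, for the collagen-binding fibromodulin, at 293 CPM (269.9 to 317) against 44.5. The lower collagen levels of FRC were thus joined by a higher level of 1 small proteoglycan.

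Of 11 perivascular and contractile genes tested, 3 were at least 2-fold higher and 2 lower, with 3 above 0 and a median log2 ratio of −0.52, beside 3.11% and 7.81% of all genes. Des (desmin), an intermediate filament of muscle and reticular cells, stood at 599 CPM (566 to 634) against 84.2 and was seen in 41.4% of thinned FRC, 6.20% of other fibroblasts and 1.81% of endothelial cells. Tagln (transgelin) stood at 728 against 282 CPM and Itga1 at 263 against 106 CPM, the latter seen in 21.98% of thinned FRC and 22.9% of endothelial cells. Acta2 stood at 256 against 366 CPM and Myh11 at 12.3 against 22.9 CPM. Of the other contractile genes, Cald1 stood at 324 against 365 CPM, Mylk at 157 against 175 CPM, Tpm2 at 143 against 227 CPM and Myl9 at 140 against 241 CPM. Acta2 and Myl9 were seen in 15.2% and 14.98% of thinned FRC and in 2.35% and 2.44% of endothelial cells. Cnn1 had 0 UMIs in FRC and 78 in other fibroblasts, at least 8.92-fold lower, and Actg2 had 3 UMIs (log2 ratio −4.49, interval −6.78 to −2.92). Of the pericyte list, Notch3 (23.6 against 4.38 CPM), Kcnj8 (65.9 against 26.6 CPM) and Abcc9 (38.3 against 16.4 CPM) were higher, Rgs5, its most abundant gene, stood at 1295 against 874 CPM, and Cspg4 had 0 UMIs in FRC and 80 in other fibroblasts, at least 9.15-fold lower. Higd1b and Itga7 also had 0 UMIs. The pericyte list summed to 1425 CPM against 943 in other fibroblasts.

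Morphogen and retinoid genes mostly stood lower. Aldh1a1 (38.8 against 162 CPM), Aldh1a2 (22.1 against 122 CPM) and Aldh1a3 (22.6 against 95.5 CPM), which make retinoic acid, and Rdh10 (43.3 against 106 CPM), which makes its precursor, were lower together with Rbp4. They were 5 of 11 retinoid genes tested, with 0 higher, where 7.81% of all genes were lower. Of 14 WNT genes, 10 were lower and 0 higher (median log2 ratio −1.19, 1 higher with TMM scaling), among them Sfrp1 (657 against 1698 CPM), Frzb (16.7 against 114 CPM) and Wnt5a (6.88 against 22.3 CPM). Across the alternatives, some of which tested fewer or more genes, the WNT list had 0 to 3 higher and 1 to 10 lower. Of 19 BMP and TGF-beta genes, 8 were lower and 2 higher (median log2 ratio −0.81), beside 7.81% and 3.11% of all genes. The lower ones included Bmp4 (84.6 against 189 CPM) and Bmp5 (2.46 against 55.3 CPM). The BMP antagonists Grem1 and Chrdl1 were the 2 higher genes. Grem1, an established product of T zone FRC and of cells near crypts, stood at 1416 CPM (1365 to 1468) against 657, with 1366 CPM in fibroblasts of no class and 380.3 in the Adamdec1 class. Chrdl1 stood at 71.3 against 27.3 CPM. Chrd (chordin), also a BMP antagonist, was lower, at 3.93 against 20.4 CPM, as were the secreted WNT inhibitors Sfrp1 and Frzb given above.

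**Figure D4:**
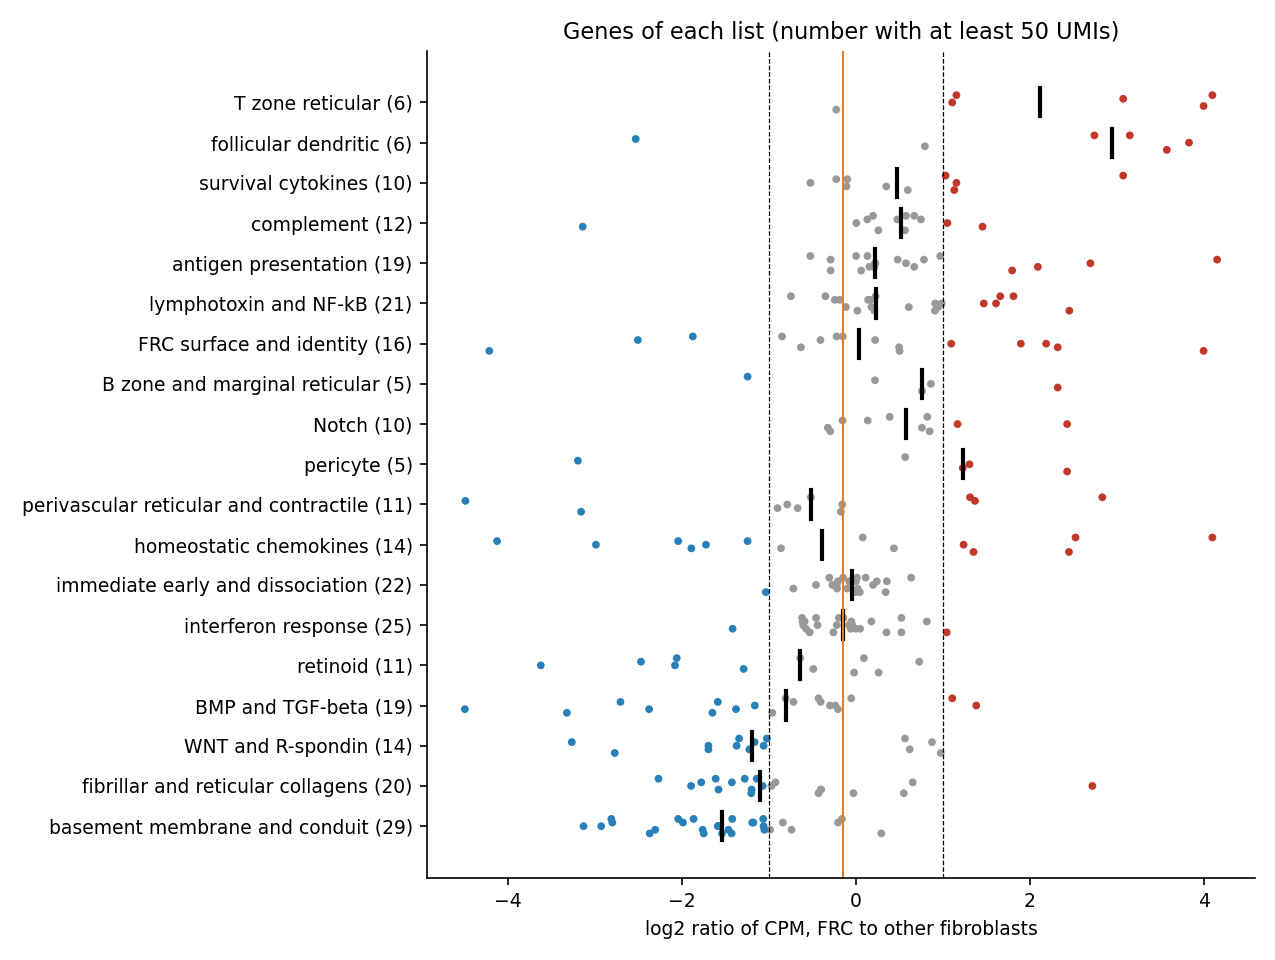
Each point is a gene with at least 50 UMIs, placed by its log2 ratio of CPM, FRC to other fibroblasts, in 19 lists (number of genes tested in parentheses), with the list median as a black bar, dashed lines at 2-fold and the median of all 9498 genes as an orange line at −0.15. The T zone list has 5 of 6 genes above 2-fold and the basement membrane list 23 of 29 below.

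Lists tied to tissue handling were nearly even. Of 22 immediate early and dissociation genes, 0 were higher and 1, Klf4, was lower (0 with TMM scaling), beside 3.11% and 7.81% of all genes. The median log2 ratio of that list was −0.04, and Fos stood at 5241 CPM in FRC and 5193 CPM in other fibroblasts. Of 25 interferon response genes, 1 (Ifi27, 128 against 62.2 CPM) was higher and 1 (Ifit3, 8.85 against 23.6 CPM) lower, near the 3.11% and 7.81% of all genes. Of 19 transcription factor genes of gut mesenchyme, 1 (Prrx1, 23.6 against 5.40 CPM) was higher, beside 3.11% of all genes. Of the same 19, 4 (Osr1, Foxf2, Runx1 and Nkx2-3) were lower, beside 7.81% of all genes, and the median log2 ratio was −0.10. Nkx2-3, which lay at the 2-fold threshold, fell short of 2-fold under 7 of 17 other settings. Prrx1, for a homeobox factor of mesenchyme, was seen in 3.70% of thinned FRC and 0.470% of other fibroblasts. Of 21 genes of prostaglandins and immune regulation, Tlr2 (44.7 against 18.2 CPM) and Ifngr2 (110.1 against 47.7 CPM) were higher and Ptgis and Ptgs1 lower, with a median log2 ratio of 0.02, and 4 were higher with TMM scaling. Of 10 Notch genes, Notch3 and Heyl (13.3 against 5.90 CPM) were higher and 0 lower, with a median log2 ratio of 0.58. The prostaglandin and Notch counts rest on at most 2 genes in each direction, beside 3.11% higher and 7.81% lower of all genes. No gene of the epithelial, mesothelial and erythroid lists had 50 UMIs, and these lists summed to 3.44, 9.83 and 0.983 CPM in FRC.

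Outside these lists, the 15 genes highest in FRC by the interval bound nearest 0 are given by name. Of these, Slc7a11, for the cystine transporter xCT, had 115 UMIs in FRC and 3 in other fibroblasts (log2 ratio 6.80, interval 5.22 to 9.10) and was seen in 8.17% of FRC before thinning. Vtn (vitronectin) stood at 216 CPM (197 to 237) against 4.72, Stmn2, for a microtubule regulator best known from neurons, at 647 CPM (612 to 683) against 27.8, and Pla2g5, for a secreted phospholipase, at 209.9 CPM (190.5 to 231) against 8.26. Mme (the peptidase CD10) stood at 63.9 against 1.52 CPM, Prkcb (protein kinase C beta) at 115 against 3.20 CPM, and Tnfsf8 (CD30 ligand) at 55.1 against 2.70 CPM. The desmosomal cadherin genes Dsc2 (58.0 against 1.86 CPM) and Dsc3 (83.1 against 2.02 CPM) were higher together. Teddm3, Prss12, Aldh3a1, Slc22a3, Gm16685 and Serpina1c completed the 15, where reads of Serpina1c may not be separable from those of Serpina1a and Serpina1b. Pla2g5 was seen in 18.5% of thinned FRC and 0.658% of other fibroblasts, Stmn2 in 37.7% and 1.93%, and Vtn in 12.6% and 0.282%.

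The 15 genes lowest in FRC were mostly high in the Adamdec1 or Bmp7 class. Fhl2, for a LIM-domain cofactor, had 4 UMIs in FRC and 908 in other fibroblasts (1.97 against 153 CPM). Adap2 had 2 UMIs (log2 ratio −6.31, interval −9.36 to −4.45), and its antisense gene Adap2os, whose reads may not be separable from it, had 1. Efemp1 stood at 7.37 against 207 CPM, Lpl (lipoprotein lipase) at 24.1 against 312 CPM and Ces1d at 18.2 against 212 CPM. Nbl1, for a BMP antagonist, stood at 41.3 against 659 CPM, and at 6352 CPM in the 32 cells of the Bmp7 class. Mmp10, Tbx2 and Tnmd had 0 UMIs in FRC and 398, 109 and 86 in other fibroblasts, which places them at least 45.5-fold, 12.5-fold and 9.83-fold lower with a floor of 3 UMIs over the class. Agt, Pcsk6, Emid1, D630033O11Rik and Lrrc32 completed the 15.

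Genes central to the study of addressins were also read in FRC. Nr2f2 stood at 74.2 CPM (62.9 to 87.1) in FRC, 52.4 in other fibroblasts and 124 in endothelial cells, and Nkx2-3, for the gut homeodomain factor, at 186 CPM (168 to 206), 373 and 466. In thinned cells Nr2f2 was seen in 9.14% of FRC and 8.13% of endothelial cells, and Nkx2-3 in 15.6% and 38.8%. In the 454 FRC with 0 UMIs of the 5 endothelial genes they stood at 76.1 and 176 CPM. Madcam1, which encodes the mucosal addressin, stood at 269 CPM in FRC, 231 in other fibroblasts and 6457 in endothelial cells, but 413 of its 547 UMIs in FRC (75.5%) lay in 5 cells and 169 in 1 cell. In the 454 FRC Madcam1 stood at 59.3 CPM, with 102 UMIs in 68 cells. The log2 ratio of Madcam1 to other fibroblasts, 0.22, went to −0.97 without cells holding leukocyte UMIs and to 1.12 among fibroblasts without endothelial UMIs. Selp had 7 UMIs in FRC and 0 in those 454 cells, and Ackr1 67 UMIs, with 2.32 CPM in the 454 cells against 774 CPM in endothelial cells. St6gal1 had 10 UMIs and Hey1 23. Plvap, for the diaphragm protein of fenestrated endothelium, stood at 468 CPM (438 to 498) in FRC against 174 and stayed at 342 CPM in the 454 FRC, with 2678 CPM in endothelial cells. It was the 1 gene of 12 on the blood endothelium list that was at least 2-fold higher, beside 3.11% of all genes, while Cldn5 stood at 0 CPM and Kdr at 1.74 CPM in the 454 cells. The list summed to 1029 CPM in FRC and 855 CPM in other fibroblasts. The part of endothelial RNA in these values was not tested.

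FRC also varied among themselves. Along the UMIs of the 4 rule genes, Ccl21a stood at 17195 CPM in the 71 such fibroblasts with 3 UMIs just outside the rule, 20834 CPM in the 49 FRC with 4, 37957 CPM in the 138 with 5 to 7, 45379 CPM in the 175 with 8 to 15 and 48718 CPM in the 152 with 16 or more. Clu stood at 3199.7 CPM just outside the rule, 2776 CPM with 4 UMIs and 12594 CPM with 16 or more, Mfge8 at 2147, 2221 and 6535 CPM, and Bst1 at 31.4, 5.84 and 204.5 CPM, where the value with 4 UMIs rests on 1 Bst1 UMI. Clu and Bst1 thus were no higher in the FRC with 4 UMIs than in these fibroblasts with 3. C3 and Il7 changed less, at 4693 and 4108 CPM and at 245 and 320.4 CPM with 4 and with 16 or more UMIs. Between the same groups Fbln1 ran from 1198 to 144.5 CPM, Sfrp1 from 1292 to 373 CPM and Col1a1 from 2729 to 1068 CPM. Cxcl12 stood at 8205 and 5920 CPM and Grem1 at 1584 and 1120 CPM, although both were higher in FRC than in other fibroblasts. The median UMIs per cell ran from 3147 to 4503 across these groups, and the sum of rule UMIs grows with depth, so their part was not tested. For Ccl21a, Clu, Mfge8 and Fbln1, FRC at the edge of the rule thus stood between FRC with many rule UMIs and other fibroblasts.

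**Figure D5:**
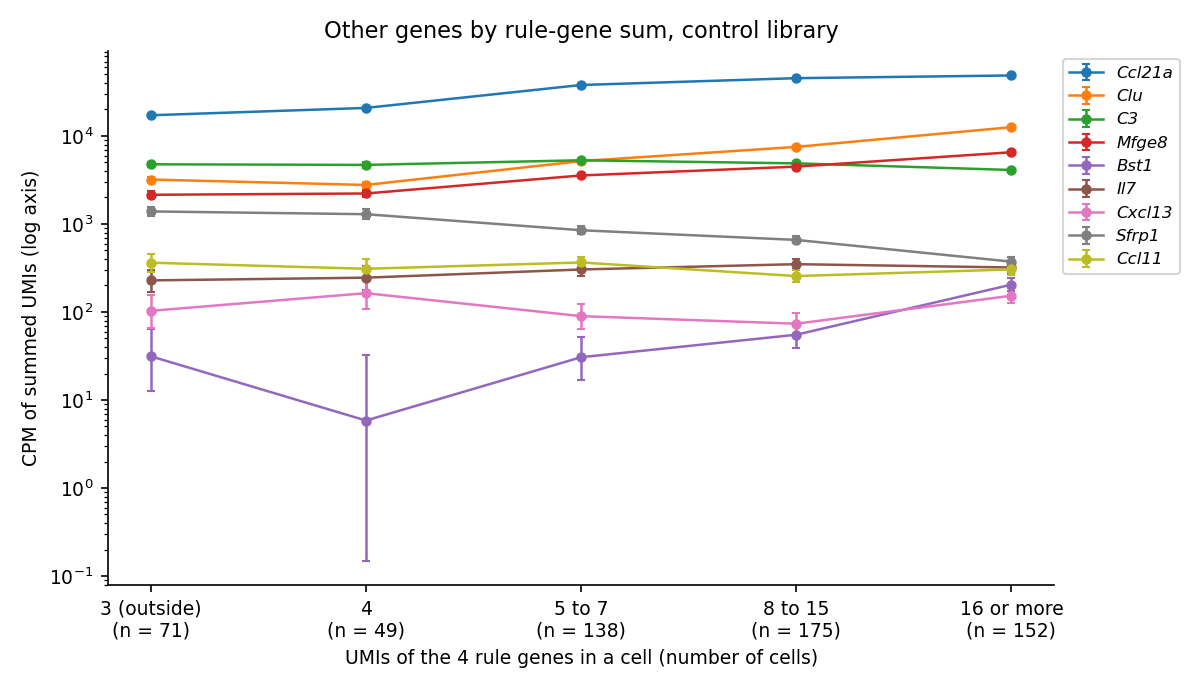
CPM of summed UMIs (log axis) of 9 genes in 71 fibroblasts with 3 UMIs of the 4 rule genes that exceeded each other class sum (outside the rule) and in FRC with 4, 5 to 7, 8 to 15 and 16 or more, with exact Poisson 95% intervals as bars and numbers of cells under the axis. Ccl21a, Clu, Mfge8 and Bst1 are highest at 16 or more, C3 varies between 4108 and 5295 CPM, and Sfrp1 is lowest at 16 or more.

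FRC with UMIs of the B cell chemoattractant gene Cxcl13 were looked at apart. Ccl21a had a UMI in 92.4% of all FRC, in 299 of the 307 FRC with an Il7 UMI (97.4%) and in 87 of the 98 with a Cxcl13 UMI (88.8%). The 39 FRC with 2 or more Cxcl13 UMIs stood at 12451 CPM of Clu, 7175 CPM of Mfge8, 698.5 CPM of Trf (transferrin), 335 CPM of Thbs2 and 237 CPM of Cd74. The 416 FRC with 0 Cxcl13 UMIs stood at 7856, 4576, 313, 115 and 76.0 CPM of the same genes. Ccl21a was lower in the former, at 32995 against 44715 CPM, and so was Ccl11, at 110 against 313 CPM. Vtn (92.4 against 245 CPM) and Igfbp3 (185 against 433 CPM) were lower there as well. The 59 FRC with 1 Cxcl13 UMI stood nearer to those with 0 for Clu, Mfge8, Trf, Thbs2 and Cd74, at 8582, 4525, 361, 165 and 102 CPM. Their Ccl21a, at 37347 CPM, stood nearer to that of the 39 cells, and their Ccl11, at 361 CPM, above both groups. Clu and Mfge8 are on the follicular dendritic list and Trf, Thbs2 and Cd74 are not. The median UMIs per cell were 4368 in the 39 cells and 3721 in those with 0 Cxcl13 UMIs, and the part of depth was not tested. Cxcl13 had a UMI in 8.16% of FRC with 4 rule UMIs and in 25.7% of those with 16 or more. In the latter Clu, Mfge8 and Cd74 stood at 12594, 6535 and 147 CPM, and the part of the rule sum was not tested. The T zone list had 5 of 6 tested genes at least 2-fold higher in FRC (Ccl21a, Bst1, Il7, Flt3l and Grem1), and the B zone and marginal list 1 higher (Enpp2) and 1 lower (Cxcl13) of 5, beside 3.11% higher and 7.81% lower of all genes. Across the alternatives, some of which tested fewer or more genes, the T zone list had 2 to 5 higher. The B zone and marginal list had 1 to 3 higher and 0 to 1 lower.

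Males and females in the pool gave a look at separate mice. By Xist and Y-linked UMIs, 427 FRC were female, 15 male, 4 carried both and 68 neither. Among 801 genes with at least 50 UMIs in male fibroblasts, 25 belonged to the 295 higher genes, of which 25 had the same direction in male cells and 21 were at least 2-fold higher there. Of the 742 lower genes 59 had enough UMIs, of which 59 had the same direction and 49 were at least 2-fold lower. Of all 801 genes, 591 had the same direction in male cells as in all cells. The male cells are also part of the class totals, and their members were chosen by the same rule.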

How the data were processed

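The authors sequenced 3 droplet libraries (10x Chromium 3′) and, per the labels, processed them with Cell Ranger 3.0.2 against mm10. The deposited values are counts, whole numbers of UMIs per gene and cell barcode, with no scaling. The FRC members, the gene lists and the comparisons used here were chosen with earlier results of these data known. Cells, fibroblasts and FRC were selected by the stated rule. Because the members were chosen from these counts and the control is 1 library, no test was run. UMIs were summed per class and expressed as CPM, with exact Poisson intervals and an exact interval of the log2 ratio conditional on the sum of both counts (95%), in Python 3.11.15 with numpy 2.4.6, scipy 1.17.1 and pandas 2.3.3. Genes needed 50 UMIs in both classes together, 2-fold was the call, the 26 rule genes stayed out of the counts, and 0 UMIs were set to a floor of 3 for ratios. Shares were taken after thinning each cell to 1000 UMIs (seed 1). Doublets were kept, and an alternative left out those called by Scrublet in scanpy 1.11.5 (141 of 5473 kept cells, 23 of 514 FRC). TMM factors came from edgeR 4.0.16 in R 4.3.3, with no edgeR test. The ratio code was checked on simulated counts. Named genes are the rule genes and label markers, genes of the lists that differed at least 2-fold or were the most abundant of their list, the 15 highest and 15 lowest other genes by the interval bound nearest 0, and the genes of the addressin study; further genes of the lists, and the genes described within groups of FRC, were named after their values were seen. Coordinates of genes follow GENCODE vM21 (GRCm38). The depth of the smaller class sets the precision, and 1 UMI in FRC is 0.492 CPM.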

Additional observations from a re-analysis of the deposited data

How the results depend on the processing

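The cells came from 1 control library, so mouse, day and capture cannot be told apart from the class levels, and intervals cover counting error only. No paired analysis was possible because the control group has 1 library and each EC-iCOUPOE library held 1 FRC. The planned comparison of FRC between genotypes and the direction of the contrast in the EC-iCOUPOE libraries were not run for the same reason. Across the other alternatives the higher genes that could be tested again kept their direction, and the lower genes did so except for 3 of 742 with a marker sum of at least 3 and again without the top cell of each gene, 2 of 654 against the named fibroblast classes, 2 of 579 against fibroblasts without FRC rule UMIs and 1 of 389 after thinning. The counts of 295 higher and 742 lower genes became 37 and 87 in male cells only (801 genes tested), 644 and 1346 among genes with at least 10 UMIs and 136 and 308 among genes with at least 200 UMIs, where fewer or more genes were tested. They were 300 and 873 with a marker sum of at least 8, 307 and 767 without called doublets and 208 and 593 after thinning (6044 genes tested). With other fibroblasts limited to cells without a UMI of the 4 FRC rule genes they were 321 and 674, and with fibroblasts limited to cells without endothelial UMIs 297 and 753, both alternatives chosen after seeing the data. The FRC share of 19.4% became 22.1% with a marker sum of at least 3, 12.4% with at least 8, 23.1% with at least 1000 genes and 2000 UMIs, 17.7% without cells holding leukocyte UMIs and 17.4% in male cells. Of the named genes, 12 of 61 higher and 22 of 99 lower calls came under 2-fold or turned in 1 or more settings. The higher ones were Plvap, Kcnj8, Cxcl12, Abcc9, Heyl, Flt3l, Grem1, Cd44, C2, Cd3e, Ifi27 and Kitl, most often with a marker sum of at least 8, and the lower ones included Nkx2-3 and Wnt2b in 7 settings each, Axin2 in 6 and Igkc in 5. Immunoglobulin genes reversed. Igkc had a log2 ratio of −2.54, which became 5.52 with a marker sum of at least 3, 2.02 against the named fibroblast classes, 2.69 against fibroblasts without FRC rule UMIs and 1.40 without its top cell. Ighm went from −2.19 to 5.94 with a marker sum of at least 3 and 1.90 without its top cell. The B cell list median of −2.37 accordingly became 5.73, 2.02, 2.69 and 1.65 under these settings, and the leukocyte list median of −1.15 became 0.54 with genes of at least 10 UMIs.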

Other observations

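The 547 fibroblasts that passed no class rule included the 71 cells with 3 UMIs of the FRC rule genes just outside the rule. The 547 cells stood at 6754 CPM of Ccl21a, 97.1 CPM of Il7, 3561 CPM of C3, 1496 CPM of Clu and 1366 CPM of Grem1, each above the Adamdec1, Pi16 and Bmp7 classes, and 18.8% of them had more than 1% of their UMIs in Ccl21a. The log2 ratio of FRC to these cells was 2.66 for Ccl21a, 0.40 for C3 and 0.05 for Grem1. Without the 71 cells, a division made after seeing the data, the other 476 stood at 4992 CPM of Ccl21a, 74.9 CPM of Il7, 3357 CPM of C3, 1208 CPM of Clu and 1314 CPM of Grem1, still above the Adamdec1, Pi16 and Bmp7 classes. In all 547, Col3a1 (7592 CPM) and Fbln1 (2191 CPM) stood above the FRC levels of 2303 and 404 CPM.

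The 26 FRC with 5 or more UMIs of the 5 endothelial genes had a median of 6035 UMIs, against 3725.5 in the 454 FRC with 0. They stood at 2486 CPM of Madcam1, 1566 CPM of Plvap and 28591 CPM of Ccl21a. Fabp7, on the enteric glia list, stood at 39.8 CPM in FRC against 3.88 CPM in other fibroblasts and at 40.1 CPM in the 454 FRC without endothelial UMIs, while the glial factor gene Sox10 had 3 UMIs in FRC. Kcna1, the other gene of that list with 50 UMIs, was lower, with 3 UMIs in FRC (1.47 against 8.60 CPM).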
